A study of Chelonia mydas with 15 samples.

Results

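The genes of the mitochondrial protein import machinery were examined in embryos of the green sea turtle, Chelonia mydas, under hypoxia, under normoxia and at laying. Members were taken by name: every gene of the deposited count table whose symbol begins with TIMM, TOMM, CHCHD, PMPC or GRPEL, or is SAMM50, and that had at least 10 counts summed over the 15 libraries. That rule gave 38 genes of the 23730 named genes in the table. Some have roles outside import, as given below for CHCHD1, CHCHD3, CHCHD6 and TIMMDC1, and import genes here means all 38. All 38 also passed the filter on low counts, so the counts below cover every member.

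RNA levels were measured by sequencing of RNA isolated from embryos, with 5 libraries in each of 3 groups. Hypoxia embryos came from eggs held for 36 h under nitrogen, with oxygen under 8 mmHg. Normoxia embryos came from eggs held for the same 36 h in sand in air, with oxygen at about 159 mmHg. Freshly laid embryos were removed within 1 h of oviposition. Both incubated groups were kept at 26 to 28 °C, and every embryo was frozen in liquid nitrogen before its RNA was extracted. The labels give neither the female nor the clutch of an egg, nor the number of embryos behind a library, so p-values measure the spread between these libraries, which may be partly technical.

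Nearly all mitochondrial proteins are encoded in the nucleus, made in the cytosol and imported. The TOM complex of the outer membrane admits them; from there the SAM complex inserts barrel-shaped proteins into the outer membrane, small TIM chaperones carry hydrophobic carriers to the TIM22 complex, and the TIM23 complex with its ATP-driven motor draws proteins with a cleavable presequence into the matrix. The oxidoreductase CHCHD4, known as MIA40 in yeast, traps cysteine-rich proteins in the intermembrane space by forming disulfide bonds in them, and many CHCHD proteins are known or likely clients of it.

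Library totals over named genes were 17590559 to 20797573 counts in hypoxia, 18257476 to 26805841 in normoxia and 14496102 to 21771745 in freshly laid embryos. Values are CPM, a gene's counts relative to its library's total after TMM scaling, unless stated otherwise. The scaling factors ran from 0.785 to 0.904 in hypoxia, 1.03 to 1.14 in normoxia and 1.00 to 1.11 in freshly laid embryos, so all hypoxia factors lay below all others. The embryo markers checked against the label were present in every group, with summed levels of 1057 to 1451 CPM in hypoxia, 748 to 1055 CPM in normoxia and 1466 to 2227 CPM in freshly laid embryos over 7 genes found. EPCAM made up most of these sums, at a mean of 941, 796 and 1374 CPM in that order. Of the 7, edgeR called 5 lower and 0 higher in normoxia than in freshly laid embryos, where limma-voom called 1 higher. In hypoxia 4 were called lower and 0 higher than in freshly laid embryos, and 3 higher and 1 lower than in normoxia. Yolk and yolk-sac markers differed between the groups: 14 genes summed to 127 to 1043 CPM in hypoxia, 93.1 to 1473 CPM in normoxia and 53.5 to 96.9 CPM in freshly laid embryos, in which FABP2 had no count. Of the 11 yolk markers tested, edgeR called 9 higher in normoxia and 6 in hypoxia than in freshly laid embryos, and 3 lower in hypoxia than in normoxia. With limma-voom, 6 were called higher in normoxia and 3 in hypoxia than in freshly laid embryos. DESeq2 called 4 lower in hypoxia than in normoxia. Leukocyte and blood markers, 9 genes, summed to 22.8 to 152 CPM in hypoxia, 33.6 to 111 CPM in normoxia and 6.95 to 55.9 CPM in freshly laid embryos. Of the 8 blood markers tested, edgeR called 2 higher in normoxia than in freshly laid embryos, 4 in hypoxia than in freshly laid embryos and 2 in hypoxia than in normoxia. DESeq2 called 5 higher in normoxia and 4 in hypoxia than in freshly laid embryos, and limma-voom called 4 and 2. Both of these called 1 higher and 1 lower in hypoxia than in normoxia. These marker counts are to be read beside the shares of all genes given below for each comparison.

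Import genes took 0.225 ± 0.00868% of all counts in hypoxia, 0.382 ± 0.0199% in normoxia and 0.266 ± 0.0264% in freshly laid embryos (SD, n = 5 each). The normoxia libraries, at 0.366 to 0.413%, all lay above the hypoxia libraries, at 0.214 to 0.233%, and above the freshly laid libraries, at 0.241 to 0.298%. These shares carry no TMM factor and put all hypoxia libraries below all freshly laid libraries. With TMM scaling that order did not hold: the members summed to 2429 to 2785 CPM in hypoxia, inside the 2195 to 2976 CPM of freshly laid embryos. In bulk embryo RNA, fewer cells of a type and less RNA per cell cannot be told apart.

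Many import genes stood higher after 36 h in normoxia than at laying. Of the 38 members, 22 were called higher in normoxia than in freshly laid embryos, 0 lower and 16 in neither direction, where a call is an adjusted p under 0.05 in edgeR's quasi-likelihood test adjusted over all 16639 tested genes. Over all tested genes 31.2% were called in this comparison, 15.2% higher and 16.1% lower. At an unadjusted p under 0.05, 1 member was lower, and DESeq2 and limma-voom each called 0 lower and 24 higher. The log2 fold changes ran from -0.43 for TOMM20L to 1.75 for TOMM34, with a median of 0.58, against -0.00 for all genes. In 15 of the 38, all 5 normoxia libraries stood above all 5 freshly laid libraries, where 12% of all genes did so.

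Most members were lower in hypoxia than in normoxia. Hypoxia embryos had 3 members called higher than normoxia embryos, 24 called lower and 11 not called, with 48.8% of all genes called, 25.7% higher and 23.2% lower. The members' median log2 fold change was -0.79, against 0.06 for all genes. In 22 members all 5 hypoxia libraries stood below all 5 normoxia libraries and in 3 all stood above, against 18.3% and 18% of all genes.

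Against freshly laid embryos, hypoxia embryos had 8 members called higher, 8 lower and 22 not called, with 40.3% of all genes called, 20.9% higher and 19.4% lower. The median log2 fold change was -0.01 for the members and 0.03 for all genes, while the members' own values ran from -3.15 for TOMM34 to 1.18 for GRPEL2. Groups did not overlap in 5 members above and 5 below, against 12.2% and 11.8% of all genes. When libraries were scaled by total counts only, the median of all genes moved to -0.29, and 4 members were called higher and 15 lower. The 7 added to the lower calls were CHCHD2, CHCHD4, CHCHD5, TIMM17B, TIMM22, TIMM44 and TOMM6. On that scaling 28.4% of all called genes were higher in hypoxia than in freshly laid embryos, against 51.8% with TMM, and 32.3% were higher than in normoxia, against 52.5% with TMM. The 3 comparisons share libraries and are therefore given side by side only.

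**Figure D1:**
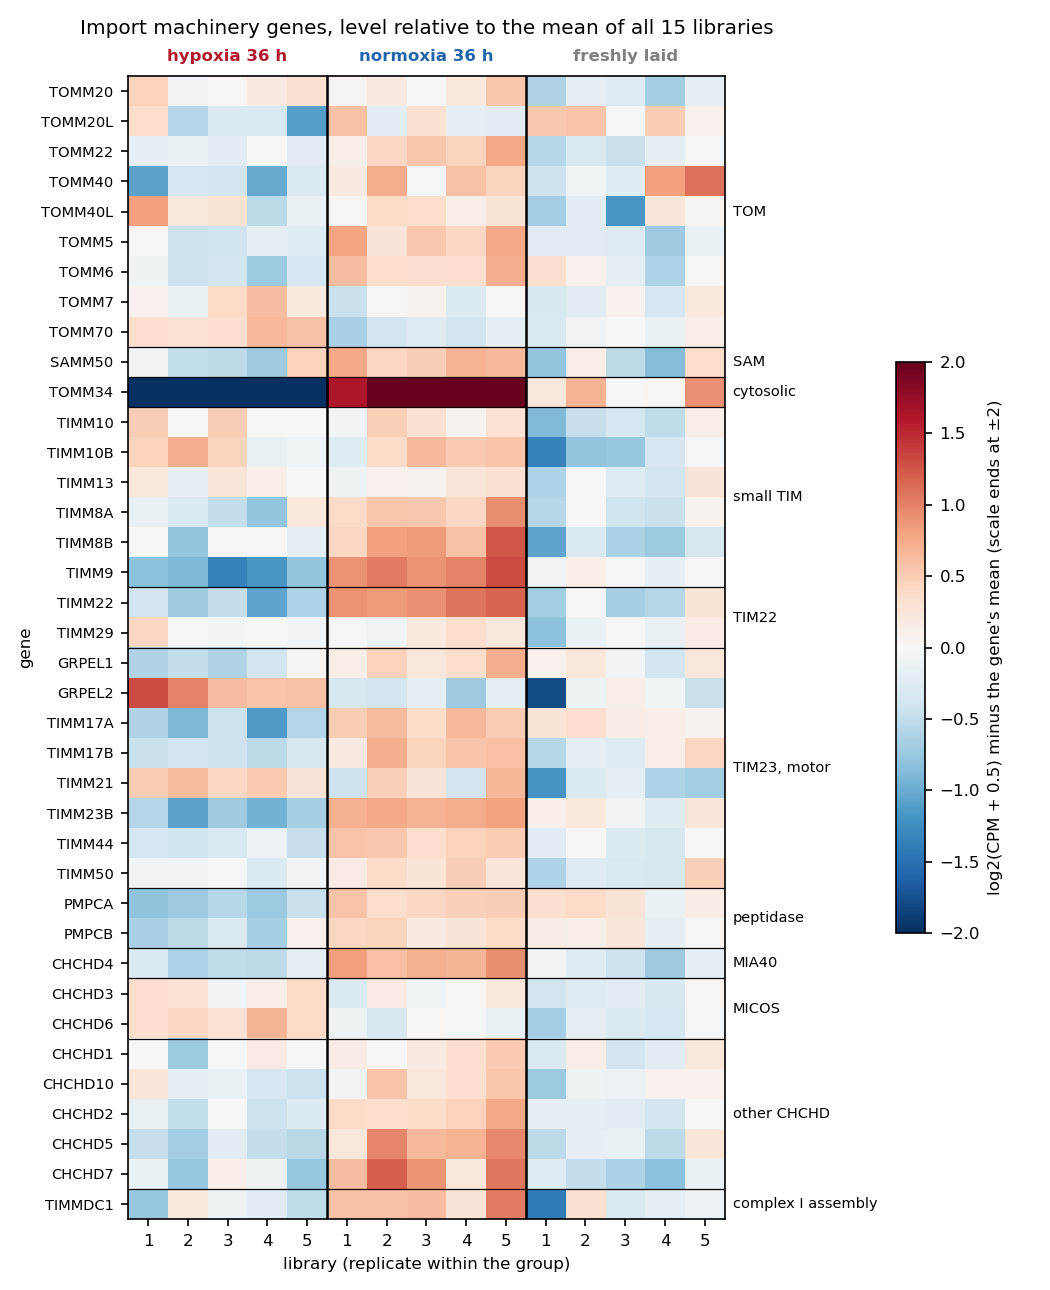
Level of each of the 38 import genes in each of the 15 libraries, as the difference of its log2 CPM from its own mean over all libraries, with genes in rows grouped by role and libraries in columns as hypoxia, normoxia and freshly laid. Most rows are highest in the 5 normoxia columns, and TOMM34 has its lowest values in the 5 hypoxia columns.

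**Figure D2:**
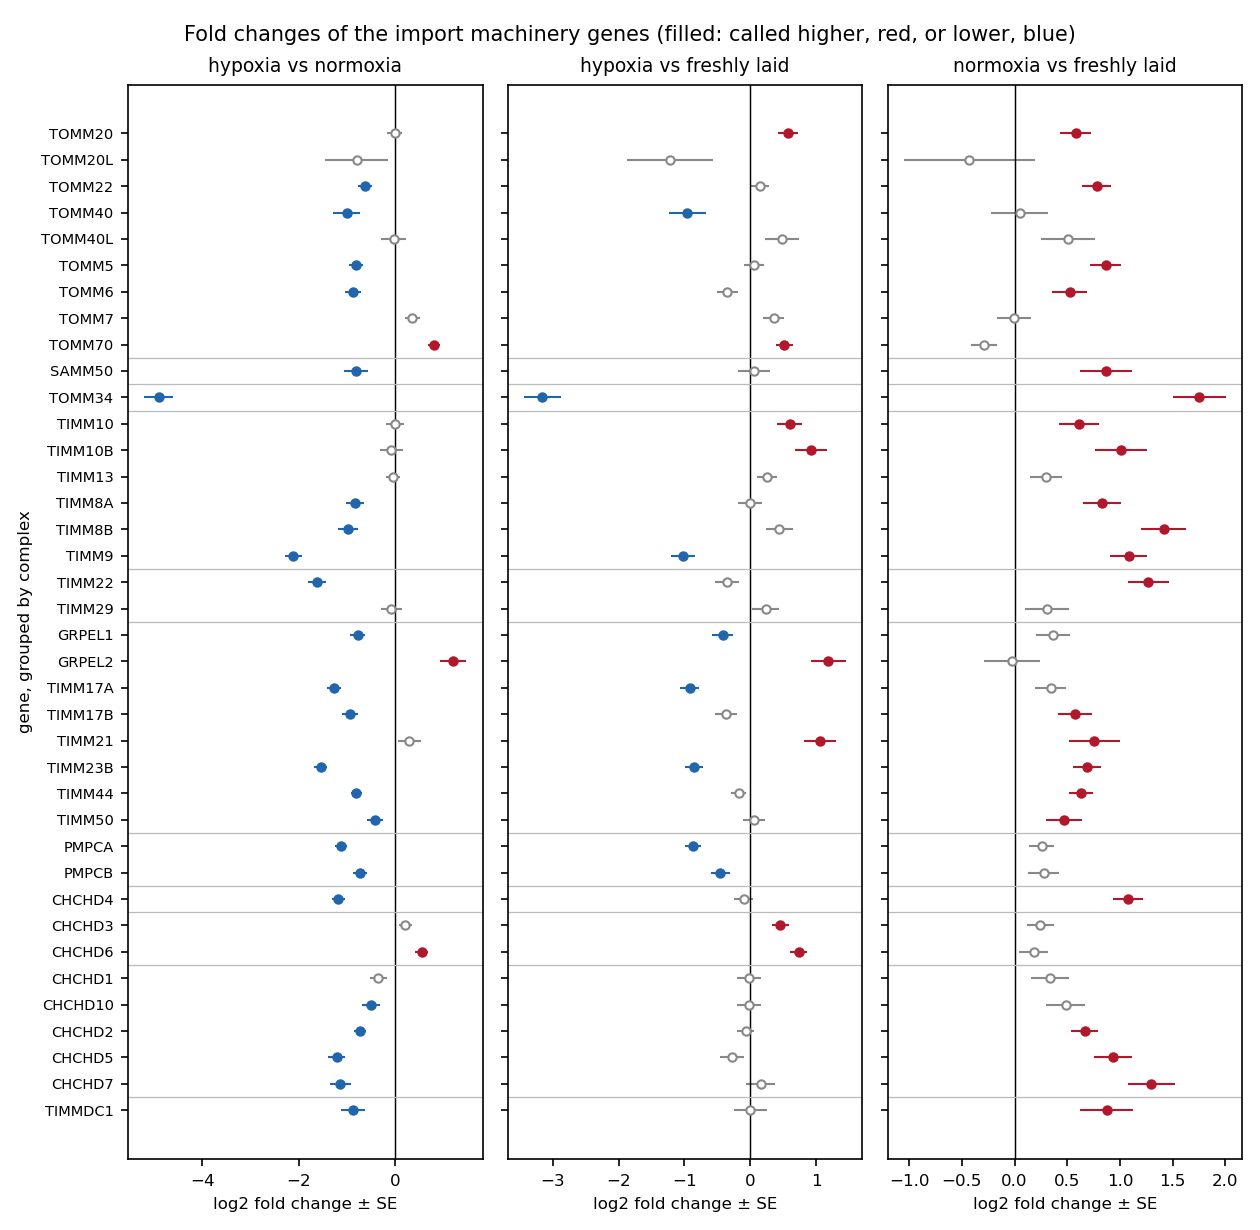
Log2 fold change of each import gene with its standard error in hypoxia over normoxia, hypoxia over freshly laid and normoxia over freshly laid, where filled points are called and open points are not. In hypoxia over normoxia 24 points are called below zero and 3 above, and in normoxia over freshly laid 22 are called above zero and 0 below.

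Other nuclear genes for mitochondrial proteins gave the following counts in the same fit. Of all tested genes, 15.2% were called higher and 16.1% lower in normoxia than in freshly laid embryos. The shares were 25.7% higher and 23.2% lower in hypoxia than in normoxia, and 20.9% and 19.4% in hypoxia than in freshly laid embryos. Of 76 mitochondrial ribosomal protein genes, 36 were called higher and 0 lower in normoxia than in freshly laid embryos by edgeR, with a median log2 fold change of 0.42, 2 lower at an unadjusted p under 0.05 and 0 lower by DESeq2 or limma-voom. In hypoxia 8 of these 76 were called higher and 35 lower than in normoxia, with a median of -0.31, and 18 higher and 18 lower than in freshly laid embryos, with a median of 0.05. The counts against freshly laid embryos, 23.7% each, were near the shares of all genes. Of 67 genes for respiratory chain subunits and assembly, 38 were called higher and 0 lower in normoxia than in freshly laid embryos by edgeR, with a median of 0.55, 2 lower at an unadjusted p under 0.05 and 0 lower by DESeq2 or limma-voom. In hypoxia 8 of the 67 were called higher and 29 lower than in normoxia, with a median of -0.33, and 20 higher and 6 lower than in freshly laid embryos, with a median of 0.23. The import genes' medians were 0.58 in normoxia over freshly laid, -0.79 in hypoxia over normoxia and -0.01 in hypoxia over freshly laid embryos, and no test between the gene groups was made.

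Yolk markers were higher in most normoxia libraries, as given above. Normoxia replicate 4 had a yolk sum of 93.1 CPM, under the highest freshly laid library at 96.9 CPM. The 38 members together summed to 3486 CPM in that library, within 3244 to 4019 CPM over the normoxia libraries and against 2195 to 2976 CPM over the freshly laid libraries. The part of the yolk and blood markers in the members' values was not tested.

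At the entry gate, the 9 TOM genes did not move as a block. In normoxia 4 of the 9 were called higher than in freshly laid embryos, against 15.2% of all genes. In hypoxia 1 was called higher and 4 lower than in normoxia, where 25.7% of all genes were called higher and 23.2% lower. Against freshly laid embryos 2 were called higher and 1 lower in hypoxia, where the shares of all genes were 20.9% and 19.4%. The receptor TOMM70, which binds carrier precursors with their cytosolic chaperones, was higher in hypoxia, at 340.0 ± 40.6 CPM against 195 ± 22.9 CPM in normoxia and 238 ± 26.2 CPM in freshly laid embryos. Its lowest hypoxia library, at 304 CPM, exceeded the highest normoxia library, at 218 CPM, and the highest freshly laid library, at 274 CPM. The excess over normoxia was 1.75-fold (log2 fold change 0.80 ± 0.13 SE, adjusted p = 5.42e-05 by edgeR). Over freshly laid embryos TOMM70 was 1.43-fold higher (log2 fold change 0.52 ± 0.13 SE, adjusted p = 0.00337 by edgeR), a call that ended when libraries were scaled by total counts only (adjusted p = 0.145).

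TOMM20, the receptor that recognises presequences, measured 154, 108, 116, 128 and 139 CPM in hypoxia, 117, 127, 113, 128 and 165 CPM in normoxia, and 73.7, 98.5, 93.5, 69.9 and 99.7 CPM in freshly laid embryos. All hypoxia and all normoxia libraries were above all freshly laid ones, and hypoxia and normoxia overlapped. TOMM20 was 1.5-fold higher in normoxia than in freshly laid embryos (adjusted p = 0.00705, edgeR) and 1.48-fold higher in hypoxia than in freshly laid embryos (adjusted p = 0.00572, edgeR). The hypoxia call ended with total counts only (adjusted p = 0.133), and with that scaling TOMM20 was called lower in hypoxia than in normoxia (log2 fold change -0.34, adjusted p = 0.0417), where TMM scaling gave -0.02 and no call.

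TOMM22, the central receptor that organises the complex, measured 70.0, 71, 66.8, 77.8 and 66.3 CPM in hypoxia, 84.5, 104, 115, 106 and 134 CPM in normoxia, and 52.2, 63, 57.3, 67.8 and 76.5 CPM in freshly laid embryos. The normoxia libraries lay above all others, while hypoxia and freshly laid libraries overlapped. In normoxia it was 1.72-fold higher than in freshly laid embryos (log2 fold change 0.78 ± 0.14 SE, adjusted p = 5.43e-04 by edgeR). Relative to normoxia, hypoxia embryos had 1.54-fold less (log2 fold change -0.63 ± 0.14 SE, adjusted p = 0.00115 by edgeR).

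TOMM5, a small subunit beside the channel, measured 79.1, 58, 59.3, 68.7 and 65.8 CPM in hypoxia, 135, 93.6, 114, 104 and 133 CPM in normoxia, and 66.8, 67.8, 65.6, 47 and 71.5 CPM in freshly laid embryos. Again the 5 normoxia libraries were the highest, with hypoxia and freshly laid libraries interleaved apart from freshly laid replicate 4, which was lowest of all. The normoxia level was 1.82-fold higher than in freshly laid embryos (log2 fold change 0.86 ± 0.15 SE, adjusted p = 4.05e-04 by edgeR). Its hypoxia level was 1.75-fold below that in normoxia (log2 fold change -0.81 ± 0.15 SE, adjusted p = 2.23e-04 by edgeR). TOMM6, another small subunit, ran from 73.4 to 116 CPM in hypoxia, 155 to 205 CPM in normoxia and 80.6 to 155 CPM in freshly laid embryos. Its rise in normoxia over freshly laid embryos (log2 fold change 0.52, adjusted p = 0.0233, edgeR) was lost without freshly laid replicate 3 or 4 or normoxia replicate 5 (adjusted p = 0.0505 to 0.066). Its hypoxia value relative to freshly laid embryos, -0.35, was not called with all libraries but was called without freshly laid replicate 4 (adjusted p = 0.0237). TOMM7, which steadies the complex and helps retain PINK1, was not called in any comparison with the 3 group means alone, at 135 ± 27 CPM in hypoxia, 105 ± 16.2 CPM in normoxia and 106 ± 18.4 CPM in freshly laid embryos. Without hypoxia replicate 2, its lowest hypoxia library, it was called higher in hypoxia than in normoxia (adjusted p = 0.0387) and than in freshly laid embryos (adjusted p = 0.0462). With the band of the title number as a covariate it was also called higher in hypoxia than in normoxia (log2 fold change 0.44, adjusted p = 0.0308).

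TOMM40, the channel itself, measured 23.5, 38.9, 38.1, 24.5 and 40.9 CPM in hypoxia, 56.8, 84.2, 49.3, 74.9 and 67.9 CPM in normoxia, and 37.2, 47.1, 42.1, 88.2 and 107 CPM in freshly laid embryos. All hypoxia libraries lay below all normoxia libraries, and the freshly laid libraries spanned a range that reached above the normoxia ones. TOMM40 was 2.01-fold lower in hypoxia than in normoxia (log2 fold change -1.01 ± 0.28 SE, adjusted p = 0.00621 by edgeR) and 1.94-fold lower than in freshly laid embryos (log2 fold change -0.96 ± 0.28 SE, adjusted p = 0.0107 by edgeR). TOMM40L, a paralogue of the channel, measured 66.4, 43.2, 45.1, 25.6 and 34 CPM in hypoxia, 37.9, 48, 47.8, 40.6 and 45.2 CPM in normoxia, and 22.9, 32.2, 16.3, 44 and 38.8 CPM in freshly laid embryos. Its groups overlapped in every comparison and it was not called in any, with log2 fold changes of 0.51 in normoxia over freshly laid, -0.03 in hypoxia over normoxia and 0.47 in hypoxia over freshly laid embryos. TOMM20L, a paralogue of the presequence receptor, was close to the detection limit, at 0.868, 0.219, 0.378, 0.372 and 0 CPM in hypoxia, 1.11, 0.425, 0.83, 0.443 and 0.429 CPM in normoxia, and 1.07, 1.09, 0.543, 1.02 and 0.642 CPM in freshly laid embryos. Hypoxia replicate 5 had no count, the groups overlapped, and TOMM20L was not called, although without hypoxia replicate 1 the hypoxia level was called lower than in freshly laid embryos (log2 fold change -1.82, adjusted p = 0.0489). Its gene model overlaps that of TIMM9 on the opposite strand, and the authors' counting used strand.

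The largest difference among the members belonged to TOMM34, a cytosolic cochaperone that binds HSP70 and HSP90 and holds precursors in an import-competent state. The gene lies at NC_051253.1:22995112-23005926 on the plus strand of the assembly rCheMyd1.pri. TOMM34 measured 1.45, 1.2, 2.65, 2.05 and 1.79 CPM in hypoxia, 37.9, 50.1, 50.9, 83.4 and 51.4 CPM in normoxia, and 13.9, 19.9, 12.1, 12.3 and 23 CPM in freshly laid embryos. The 3 groups were fully separated, with every hypoxia library under 3 CPM, every freshly laid library between them and normoxia, and every normoxia library on top. In hypoxia it was 30.0-fold lower than in normoxia (log2 fold change -4.91 ± 0.30 SE, adjusted p = 2.42e-09 by edgeR) and 8.9-fold lower than in freshly laid embryos (log2 fold change -3.15 ± 0.28 SE, adjusted p = 4.05e-07 by edgeR). Normoxia embryos had 3.37-fold more than freshly laid embryos (log2 fold change 1.75 ± 0.25 SE, adjusted p = 1.10e-04 by edgeR).

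SAMM50, the core of the SAM complex, averaged 105 ± 38.1 CPM in hypoxia, 185 ± 17.4 CPM in normoxia and 101.4 ± 39.9 CPM in freshly laid embryos. It was 1.82-fold higher in normoxia than in freshly laid embryos (adjusted p = 0.0139, edgeR), with no overlap of the libraries. In hypoxia it was 1.76-fold lower than in normoxia (adjusted p = 0.0116, edgeR), and hypoxia replicate 5, at 167 CPM, reached the normoxia range.

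Among the 6 small TIM chaperones, 5 were called higher in normoxia than in freshly laid embryos, against 15.2% of all genes. In hypoxia 3 were called lower than in normoxia, against 23.2% of all genes. Relative to freshly laid embryos 2 were called higher and 1 lower in hypoxia, where the shares of all genes were 20.9% and 19.4%. TIMM9 and TIMM10 form one hexameric chaperone, and the 2 genes parted in hypoxia. TIMM9, at NC_051245.1:121830876-121843677 on the plus strand, measured 6.89, 6.56, 4.6, 5.33 and 7.09 CPM in hypoxia, 23.8, 26.5, 23.8, 25.6 and 32 CPM in normoxia, and 12, 13.8, 12.5, 11.2 and 12.5 CPM in freshly laid embryos. As with TOMM34, its 3 groups did not overlap, with hypoxia lowest and normoxia highest. TIMM9 was 4.32-fold lower in hypoxia than in normoxia (log2 fold change -2.11 ± 0.18 SE, adjusted p = 1.03e-07 by edgeR) and 2.04-fold lower than in freshly laid embryos (log2 fold change -1.03 ± 0.18 SE, adjusted p = 2.36e-04 by edgeR), and 2.12-fold higher in normoxia than in freshly laid embryos (log2 fold change 1.09 ± 0.18 SE, adjusted p = 2.69e-04 by edgeR).

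TIMM10 measured 48.5, 33.5, 48.7, 35.1 and 34.1 CPM in hypoxia, 33, 48.2, 42.4, 36.1 and 42.2 CPM in normoxia, and 18.5, 24.8, 26.8, 24.1 and 37.9 CPM in freshly laid embryos. Hypoxia and normoxia libraries covered the same range, and freshly laid libraries were mostly lower, with replicate 5 inside that range. TIMM10 was called higher in hypoxia than in freshly laid embryos (log2 fold change 0.60, adjusted p = 0.0181, edgeR), which ended with total counts only (adjusted p = 0.199). It was also called higher in normoxia than in freshly laid embryos (log2 fold change 0.61, adjusted p = 0.0211, edgeR), which ended without normoxia replicate 2 (adjusted p = 0.0578). That call also ended with the band of the title number as a covariate (adjusted p = 0.107) and, with a smaller adjusted p, with neighbouring normoxia libraries summed. TIMM10B, a small TIM that docks on the TIM22 complex, averaged 42.1 ± 10.8 CPM in hypoxia, 44.7 ± 9.72 CPM in normoxia and 22.2 ± 7.66 CPM in freshly laid embryos, and was called higher in normoxia (adjusted p = 0.00502, edgeR) and in hypoxia (adjusted p = 0.006, edgeR) than in freshly laid embryos.

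TIMM8A and TIMM8B are alternative partners in the other small TIM chaperone, which they build with TIMM13. TIMM8A measured 80.8, 72.9, 64.3, 51.7 and 104 CPM in hypoxia, 116, 132, 130.0, 119 and 171 CPM in normoxia, and 59.9, 89.3, 67.5, 65.6 and 93.5 CPM in freshly laid embryos. Normoxia libraries were above all others, and hypoxia and freshly laid libraries overlapped. TIMM8A was 1.78-fold higher in normoxia than in freshly laid embryos (log2 fold change 0.83 ± 0.18 SE, adjusted p = 0.00285 by edgeR). Hypoxia embryos had 1.79-fold less than normoxia embryos (log2 fold change -0.84 ± 0.18 SE, adjusted p = 0.00116 by edgeR). TIMM8B measured 24.2, 13.8, 24.5, 24 and 20.9 CPM in hypoxia, 31.9, 42.8, 43.6, 36 and 56.9 CPM in normoxia, and 11.3, 19.5, 15.2, 14.1 and 19.1 CPM in freshly laid embryos. Its normoxia libraries again stood above all others. TIMM8B was 2.66-fold higher in normoxia than in freshly laid embryos (log2 fold change 1.41 ± 0.21 SE, adjusted p = 1.35e-04 by edgeR). Compared with normoxia, the hypoxia level was 1.96-fold lower (log2 fold change -0.97 ± 0.21 SE, adjusted p = 8.87e-04 by edgeR). Its hypoxia level was called higher than in freshly laid embryos only when hypoxia replicate 2, at 13.8 CPM, was left out (log2 fold change 0.56, adjusted p = 0.0339, edgeR). With all libraries that log2 fold change was 0.44 (adjusted p = 0.1, edgeR). TIMM13 was not called in any comparison with all libraries and TMM scaling, at 118 ± 13.2 CPM in hypoxia, 122 ± 13.6 CPM in normoxia and 99 ± 23.6 CPM in freshly laid embryos. Without freshly laid replicate 5 it was called higher in normoxia than in freshly laid embryos (adjusted p = 0.0348), and under scaling by total counts it was called lower in hypoxia than in normoxia (log2 fold change -0.37, adjusted p = 0.0437).

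The carrier translocase differed between its members. TIMM22, the channel, at NC_051257.1:22193975-22198057 on the plus strand, measured 36.3, 28.7, 33.7, 22.6 and 30.7 CPM in hypoxia, 88.9, 85.5, 89.1, 99.8 and 106 CPM in normoxia, and 29.2, 47.1, 29.7, 31.5 and 57 CPM in freshly laid embryos. Every normoxia library exceeded every other library, and hypoxia and freshly laid libraries overlapped. TIMM22 was 2.41-fold higher in normoxia than in freshly laid embryos (log2 fold change 1.27 ± 0.19 SE, adjusted p = 1.45e-04 by edgeR). Relative to normoxia, hypoxia embryos had 3.09-fold less (log2 fold change -1.63 ± 0.19 SE, adjusted p = 3.18e-06 by edgeR). TIMM29, a subunit of this complex found in animals, was not called in any comparison, at 12.9 ± 2.05 CPM in hypoxia, 13.6 ± 1.79 CPM in normoxia and 11 ± 2.6 CPM in freshly laid embryos.

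**Figure D3:**
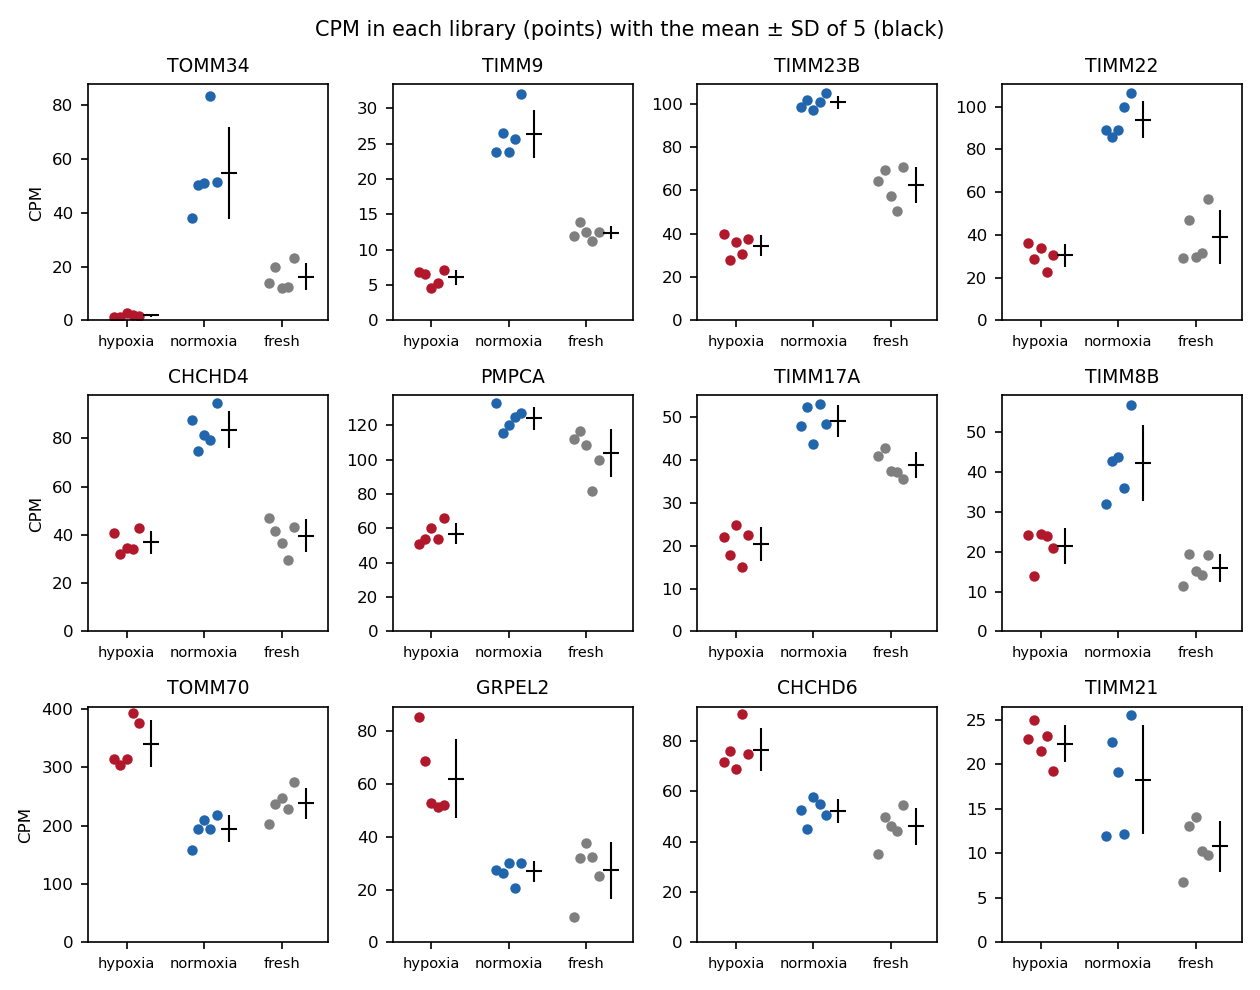
CPM of 12 import genes in each of the 15 libraries, with colored points for libraries and black marks for the mean ± SD of 5, in the order hypoxia, normoxia and freshly laid. TOMM34 sits between 1.2 and 2.65 CPM in hypoxia and between 37.9 and 83.4 CPM in normoxia. GRPEL2 has all 5 hypoxia libraries above all others, while its normoxia and freshly laid libraries overlap.

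In the presequence translocase and its motor, 5 of 8 genes were called higher in normoxia than in freshly laid embryos, against 15.2% of all genes. In hypoxia 1 was called higher and 6 lower than in normoxia, against 25.7% and 23.2% of all genes. Relative to freshly laid embryos 2 were called higher and 3 lower in hypoxia, where the shares of all genes were 20.9% and 19.4%. TIMM23B, the gene of the TIMM23 channel family that the name rule found, measured 39.7, 28.1, 36.3, 30.7 and 37.7 CPM in hypoxia, 98.5, 102, 96.9, 100.8 and 105 CPM in normoxia, and 64.3, 69.2, 57.5, 50.5 and 70.6 CPM in freshly laid embryos. The 3 groups were separated without overlap, hypoxia lowest and normoxia highest. TIMM23B was 2.92-fold lower in hypoxia than in normoxia (log2 fold change -1.54 ± 0.13 SE, adjusted p = 9.52e-08 by edgeR) and 1.81-fold lower than in freshly laid embryos (log2 fold change -0.86 ± 0.13 SE, adjusted p = 7.25e-05 by edgeR), and 1.61-fold higher in normoxia than in freshly laid embryos (log2 fold change 0.69 ± 0.13 SE, adjusted p = 8.62e-04 by edgeR).

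TIMM17A, a core subunit beside the channel, measured 22, 17.8, 24.9, 15.1 and 22.4 CPM in hypoxia, 47.9, 52.3, 43.8, 53.1 and 48.4 CPM in normoxia, and 40.9, 42.9, 37.5, 37.1 and 35.5 CPM in freshly laid embryos. All hypoxia libraries were below all freshly laid libraries, and these below all normoxia libraries. TIMM17A was 2.4-fold lower in hypoxia than in normoxia (log2 fold change -1.26 ± 0.15 SE, adjusted p = 2.39e-06 by edgeR) and 1.9-fold lower than in freshly laid embryos (log2 fold change -0.92 ± 0.15 SE, adjusted p = 9.66e-05 by edgeR), with no call in normoxia over freshly laid embryos (log2 fold change 0.34, adjusted p = 0.0785, edgeR; 0.0448 with DESeq2). TIMM17B, its paralogue, shares exon sequence on the same strand with CDK20 in this annotation, so its counts are uncertain. It averaged 45.8 ± 2.57 CPM in hypoxia, 88.2 ± 12.3 CPM in normoxia and 59.2 ± 16 CPM in freshly laid embryos, and was called lower in hypoxia than in normoxia (adjusted p = 1.64e-04, edgeR) and higher in normoxia than in freshly laid embryos (adjusted p = 0.0141, edgeR). The second of these calls ended when normoxia libraries with neighbouring title numbers were summed (adjusted p = 0.0797). Leaving out freshly laid replicate 1 brought it under the threshold in hypoxia against freshly laid embryos as well (log2 fold change -0.48, adjusted p = 0.0224).

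TIMM44, which tethers the motor to the channel, measured 52.4, 50.5, 54, 62 and 48.7 CPM in hypoxia, 100.1, 97.3, 85.1, 92 and 95.1 CPM in normoxia, and 57.9, 68.2, 55.7, 53.7 and 67.5 CPM in freshly laid embryos. Normoxia libraries were the highest in every case, and hypoxia and freshly laid libraries overlapped. TIMM44 was 1.55-fold higher in normoxia than in freshly laid embryos (log2 fold change 0.63 ± 0.12 SE, adjusted p = 7.69e-04 by edgeR). Its hypoxia level was 1.76-fold below that in normoxia (log2 fold change -0.81 ± 0.12 SE, adjusted p = 2.46e-05 by edgeR). TIMM50, the receptor subunit, averaged 63.2 ± 4.13 CPM in hypoxia, 84.6 ± 7.34 CPM in normoxia and 61.1 ± 19.7 CPM in freshly laid embryos. Its calls were marginal: the value for normoxia over freshly laid embryos, 0.47, adjusted p = 0.0407 by edgeR, missed the threshold without any one of freshly laid replicates 1 to 4 and normoxia replicates 2 to 5 (adjusted p = 0.0618 to 0.0956), and that for hypoxia over normoxia, -0.42, adjusted p = 0.045 by edgeR, missed it without any one of normoxia replicates 2 to 5 and the 5 hypoxia libraries (adjusted p = 0.056 to 0.101).

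TIMM21, a subunit that links the translocase with TOM and with respiratory chain assembly, measured 22.9, 24.9, 21.4, 23.1 and 19.3 CPM in hypoxia, 11.9, 22.5, 19.1, 12.1 and 25.5 CPM in normoxia, and 6.78, 13, 14.1, 10.3 and 9.77 CPM in freshly laid embryos. All hypoxia libraries were above all freshly laid libraries, while the normoxia libraries spread over both ranges. TIMM21 was 2.07-fold higher in hypoxia than in freshly laid embryos (log2 fold change 1.05 ± 0.24 SE, adjusted p = 0.00245 by edgeR). Its rise in normoxia over freshly laid embryos (log2 fold change 0.76 ± 0.24 SE, adjusted p = 0.0246 by edgeR) was lost without any one of freshly laid replicates 1 and 4 and normoxia replicates 2 and 5 (adjusted p = 0.0515 to 0.0804).

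GRPEL1 and GRPEL2 are the nucleotide exchange factors of the motor chaperone HSPA9, and they moved in opposite directions in hypoxia. GRPEL2, at NC_051248.1:21659383-21682629 on the plus strand, measured 85.5, 68.6, 52.6, 51.2 and 51.8 CPM in hypoxia, 27.4, 26.4, 30.1, 20.5 and 30.0 CPM in normoxia, and 9.54, 32, 37.5, 32.3 and 25.1 CPM in freshly laid embryos. Every hypoxia library was above every normoxia and every freshly laid library, and normoxia and freshly laid libraries overlapped. GRPEL2 was 2.3-fold higher in hypoxia than in normoxia (log2 fold change 1.2 ± 0.27 SE, adjusted p = 0.00133 by edgeR) and 2.27-fold higher than in freshly laid embryos (log2 fold change 1.18 ± 0.27 SE, adjusted p = 0.00219 by edgeR). GRPEL1 measured 69.3, 75.6, 69.1, 81.3 and 109 CPM in hypoxia, 116, 146, 124, 134 and 175 CPM in normoxia, and 112, 122, 102, 81.4 and 124 CPM in freshly laid embryos. All hypoxia libraries were below all normoxia libraries, and hypoxia replicate 5 reached the freshly laid range. GRPEL1 was 1.72-fold lower in hypoxia than in normoxia (log2 fold change -0.78 ± 0.16 SE, adjusted p = 7.03e-04 by edgeR). Its lower level in hypoxia than in freshly laid embryos (log2 fold change -0.42 ± 0.16 SE, adjusted p = 0.0465 by edgeR) was lost without any one of 8 of the 10 libraries, all but freshly laid replicate 4 and hypoxia replicate 5 (adjusted p = 0.0552 to 0.106).

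The matrix processing peptidase, which cuts presequences off imported proteins, consists of PMPCA, which holds the presequence, and PMPCB, which carries the catalytic site. PMPCA, at NC_051256.1:19130263-19140626 on the minus strand, measured 51.1, 53.8, 60.0, 53.7 and 66 CPM in hypoxia, 133, 115, 120.3, 125 and 127 CPM in normoxia, and 112, 117, 109, 81.6 and 99.8 CPM in freshly laid embryos. The hypoxia libraries were all below the others, and normoxia and freshly laid libraries overlapped. PMPCA was 2.18-fold lower in hypoxia than in normoxia (log2 fold change -1.12 ± 0.12 SE, adjusted p = 1.39e-06 by edgeR) and 1.82-fold lower than in freshly laid embryos (log2 fold change -0.87 ± 0.12 SE, adjusted p = 3.55e-05 by edgeR). PMPCB measured 62.7, 68.4, 80.3, 62 and 104 CPM in hypoxia, 134, 134, 112, 118 and 129.7 CPM in normoxia, and 109, 106, 117, 85.6 and 99.9 CPM in freshly laid embryos. All hypoxia libraries were below all normoxia libraries, and hypoxia replicate 5 lay within the freshly laid range. PMPCB was 1.66-fold lower in hypoxia than in normoxia (log2 fold change -0.73 ± 0.15 SE, adjusted p = 5.55e-04 by edgeR). Relative to freshly laid embryos it was 1.37-fold lower in hypoxia (log2 fold change -0.46 ± 0.15 SE, adjusted p = 0.0202 by edgeR), which ended without hypoxia replicate 1 (adjusted p = 0.0527) and in a fit of the 10 libraries compared alone (adjusted p = 0.0548). Neither subunit was called in normoxia over freshly laid embryos, with log2 fold changes of 0.26 for PMPCA and 0.28 for PMPCB.

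In the disulfide relay of the intermembrane space, CHCHD4, at NC_051247.1:20364529-20383969 on the plus strand, measured 40.8, 32.1, 34.6, 34.1 and 43 CPM in hypoxia, 87.6, 74.9, 81.4, 79.5 and 94.5 CPM in normoxia, and 47.1, 41.5, 36.8, 29.6 and 43.4 CPM in freshly laid embryos. The normoxia libraries formed a range of their own above all others, and hypoxia and freshly laid libraries overlapped. CHCHD4 was 2.11-fold higher in normoxia than in freshly laid embryos (log2 fold change 1.07 ± 0.14 SE, adjusted p = 5.28e-05 by edgeR). Hypoxia embryos had 2.26-fold less than normoxia embryos (log2 fold change -1.18 ± 0.14 SE, adjusted p = 3.95e-06 by edgeR). Its level in hypoxia relative to freshly laid embryos was not called with TMM scaling (log2 fold change -0.10), but was called lower with total counts only (-0.42, adjusted p = 0.0164). GFER, the sulfhydryl oxidase that reoxidises CHCHD4 and is not a member by name, averaged 4.56 ± 1.12 CPM in hypoxia, 31.8 ± 2.91 CPM in normoxia and 10.6 ± 2.21 CPM in freshly laid embryos. GFER was 2.99-fold higher in normoxia than in freshly laid embryos (adjusted p = 3.86e-05, edgeR). In hypoxia its log2 fold change was -2.80 relative to normoxia (adjusted p = 2.48e-08, edgeR) and -1.22 relative to freshly laid embryos (adjusted p = 1.71e-04, edgeR).

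Of 5 other CHCHD genes, 3 were called higher in normoxia than in freshly laid embryos, 4 lower in hypoxia than in normoxia, and none was called between hypoxia and freshly laid embryos by edgeR, DESeq2 or limma-voom, or passed there at an unadjusted p under 0.05, although CHCHD2 and CHCHD5 were called lower under scaling by total counts. The shares of all genes were 15.2% higher, 23.2% lower and 40.3% in either direction, in the same order of comparisons. CHCHD7, a small protein with paired cysteine motifs, measured 24.6, 15.6, 28.8, 25 and 15.7 CPM in hypoxia, 41.3, 61.9, 50.4, 31.7 and 56.6 CPM in normoxia, and 22.5, 19.3, 17.1, 15 and 24.5 CPM in freshly laid embryos. All normoxia libraries were above all others. CHCHD7 was 2.46-fold higher in normoxia than in freshly laid embryos (log2 fold change 1.30 ± 0.22 SE, adjusted p = 4.07e-04 by edgeR). Compared with normoxia, the hypoxia level was 2.21-fold lower (log2 fold change -1.14 ± 0.22 SE, adjusted p = 3.91e-04 by edgeR). CHCHD2, which acts in the intermembrane space and also in the nucleus as a regulator of oxidase subunit COX4I2 in human cells, averaged 214 ± 29.8 CPM in hypoxia, 357 ± 46.6 CPM in normoxia and 225 ± 20.3 CPM in freshly laid embryos. It was called higher in normoxia than in freshly laid embryos (adjusted p = 9.44e-04, edgeR) and lower in hypoxia than in normoxia (adjusted p = 1.32e-04, edgeR). CHCHD5 averaged 26.5 ± 3.44 CPM in hypoxia, 61.6 ± 12.2 CPM in normoxia and 32.2 ± 7.38 CPM in freshly laid embryos, and was called higher in normoxia than in freshly laid embryos (adjusted p = 9.26e-04, edgeR) and lower in hypoxia than in normoxia (adjusted p = 2.97e-05, edgeR). CHCHD10, the paralogue of CHCHD2, was called lower in hypoxia than in normoxia (log2 fold change -0.51, adjusted p = 0.0281, edgeR), and lost that call without any one of 5 libraries, normoxia replicates 2 and 5 and hypoxia replicates 2, 4 and 5 (adjusted p = 0.0527 to 0.0718). It just missed a call in normoxia over freshly laid embryos (adjusted p = 0.0503, edgeR), where DESeq2 and limma-voom called it higher with all libraries. Without freshly laid replicate 5 or normoxia replicate 1 edgeR called it as well (adjusted p = 0.0285 to 0.0461). CHCHD1, a protein of the mitochondrial ribosome, was not called, at 31.1 ± 6.63 CPM in hypoxia, 39.7 ± 5.65 CPM in normoxia and 31.4 ± 6.06 CPM in freshly laid embryos, although total counts only gave a call in hypoxia over normoxia (log2 fold change -0.67, adjusted p = 0.00427).

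CHCHD3 and CHCHD6, subunits of the MICOS complex that shapes cristae junctions, were the CHCHD genes called higher in hypoxia than in freshly laid embryos. CHCHD6 measured 71.7, 75.8, 68.9, 90.8 and 74.8 CPM in hypoxia, 52.5, 45, 57.8, 54.9 and 50.7 CPM in normoxia, and 35.2, 49.9, 46.1, 44.3 and 54.7 CPM in freshly laid embryos. All hypoxia libraries were above all others, and normoxia and freshly laid libraries overlapped. CHCHD6 was 1.66-fold higher in hypoxia than in freshly laid embryos (log2 fold change 0.73 ± 0.13 SE, adjusted p = 3.98e-04 by edgeR) and 1.46-fold higher than in normoxia (log2 fold change 0.55 ± 0.13 SE, adjusted p = 0.00264 by edgeR), the second call ending with total counts only (adjusted p = 0.172). CHCHD3 averaged 248 ± 29.8 CPM in hypoxia, 215 ± 30.3 CPM in normoxia and 181 ± 19.7 CPM in freshly laid embryos. Its call in hypoxia over freshly laid embryos (log2 fold change 0.45, adjusted p = 0.0106, edgeR) also ended with total counts only (adjusted p = 0.332). Of the other 6 genes listed for MICOS and cristae shape, 3 were called higher in normoxia than in freshly laid embryos, 4 were called lower in hypoxia than in normoxia and 3 lower in hypoxia than in freshly laid embryos. The shares of all genes called in these directions were 15.2%, 23.2% and 19.4% in the same order. IMMT, the mitofilin core of MICOS, averaged 81 ± 12.1 CPM in hypoxia, 133 ± 11.2 CPM in normoxia and 86.2 ± 8.02 CPM in freshly laid embryos, and was called lower in hypoxia than in normoxia (adjusted p = 1.79e-04, edgeR). MICOS subunit APOO fell to 28.4 ± 5.74 CPM in hypoxia, against 71.3 ± 15.1 CPM in normoxia (adjusted p = 7.28e-06, edgeR) and 51.3 ± 5.84 CPM in freshly laid embryos (adjusted p = 7.31e-04, edgeR).

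TIMMDC1, which carries a TIMM name but assists the assembly of respiratory complex I, averaged 42 ± 10.9 CPM in hypoxia, 77.3 ± 15 CPM in normoxia and 42.1 ± 15.5 CPM in freshly laid embryos. It was 1.84-fold higher in normoxia than in freshly laid embryos (adjusted p = 0.0141, edgeR) and 1.84-fold lower in hypoxia than in normoxia (adjusted p = 0.008, edgeR).

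Paralogues and partners were compared by their ratio within a library. The scaling of libraries enters this ratio only through the 0.5 CPM added to each gene, which weighs most on genes near that level. The log2 ratio of CPM, with 0.5 CPM added to each gene, was taken for 10 pairs and compared in the 3 comparisons by exact two-sided permutation tests adjusted over all 30. The smallest p that 5 against 5 libraries allow is 0.00794, and with 1 library left out, 4 against 5, it is 0.0159. TIMM9 over TIMM10 averaged -2.61 ± 0.43 in hypoxia, against -0.60 ± 0.21 in normoxia, a difference of -2.01 (SD, n = 5 each; exact permutation p = 0.00794, adjusted p = 0.0298). In freshly laid embryos this log2 ratio was -1.03 ± 0.36, and hypoxia differed from it by -1.59 (exact permutation p = 0.00794, adjusted p = 0.0298).

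GRPEL2 over GRPEL1 averaged -0.39 ± 0.52 in hypoxia, against -2.35 ± 0.29 in normoxia, a difference of 1.95 (exact permutation p = 0.00794, adjusted p = 0.0298, n = 5 each). The freshly laid value was -2.08 ± 0.87, from which hypoxia differed by 1.69 (exact permutation p = 0.00794, adjusted p = 0.0298). Without hypoxia replicate 1, 2 or 3 the comparison with freshly laid embryos had adjusted p = 0.0529 to 0.0595 (exact permutation), where 4 against 5 libraries cannot go under p = 0.0159.

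TOMM40L over TOMM40 averaged 0.33 ± 0.67 in hypoxia, against -1.0 ± 0.40 in freshly laid embryos, a difference of 1.34 (exact permutation p = 0.00794, adjusted p = 0.0298, n = 5 each). Against normoxia, at -0.58 ± 0.33, the hypoxia ratio differed by 0.91 (exact permutation p = 0.0159, adjusted p = 0.0476), which was lost without any one of the 10 libraries (adjusted p = 0.0529 to 0.108, exact permutation). PMPCA over PMPCB averaged -0.38 ± 0.17 in hypoxia, against -0.00 ± 0.09 in freshly laid embryos, a difference of -0.38 (exact permutation p = 0.00794, adjusted p = 0.0298, n = 5 each). Against normoxia, at -0.02 ± 0.13, it differed by -0.37 (exact permutation p = 0.0159, adjusted p = 0.0476), lost in 9 of the 10 comparisons without 1 library, all but that without normoxia replicate 2 (adjusted p = 0.0529 to 0.0794, exact permutation).

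TOMM20L over TOMM20 averaged -7.29 ± 0.49 in hypoxia, against -6.0 ± 0.46 in freshly laid embryos, a difference of -1.28 (exact permutation p = 0.00794, adjusted p = 0.0298, n = 5 each), and without hypoxia replicate 5 the adjusted p was 0.0529 (exact permutation). TOMM20L was close to the detection limit and was not called itself with all libraries, so the added 0.5 CPM weighs on this ratio. Over the alternatives the difference ran from -1.92 to -0.84. TIMM8A over TIMM8B averaged 1.66 ± 0.12 in normoxia, against 2.22 ± 0.09 in freshly laid embryos, a difference of -0.55 (exact permutation p = 0.00794, adjusted p = 0.0298, n = 5 each). The ratios of TIMM17A to TIMM17B, TIMM10 to TIMM10B, CHCHD6 to CHCHD3 and CHCHD10 to CHCHD2 passed in no comparison with all libraries. Of these, TIMM17A over TIMM17B passed in hypoxia against freshly laid embryos without freshly laid replicate 5 (a difference of -0.76, adjusted p = 0.034, exact permutation) and in hypoxia against normoxia without hypoxia replicate 3 (-0.41, adjusted p = 0.0298, exact permutation). TIMM10 over TIMM10B passed in hypoxia against freshly laid embryos without freshly laid replicate 4 (-0.44, adjusted p = 0.0433, exact permutation).

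**Figure D4:**
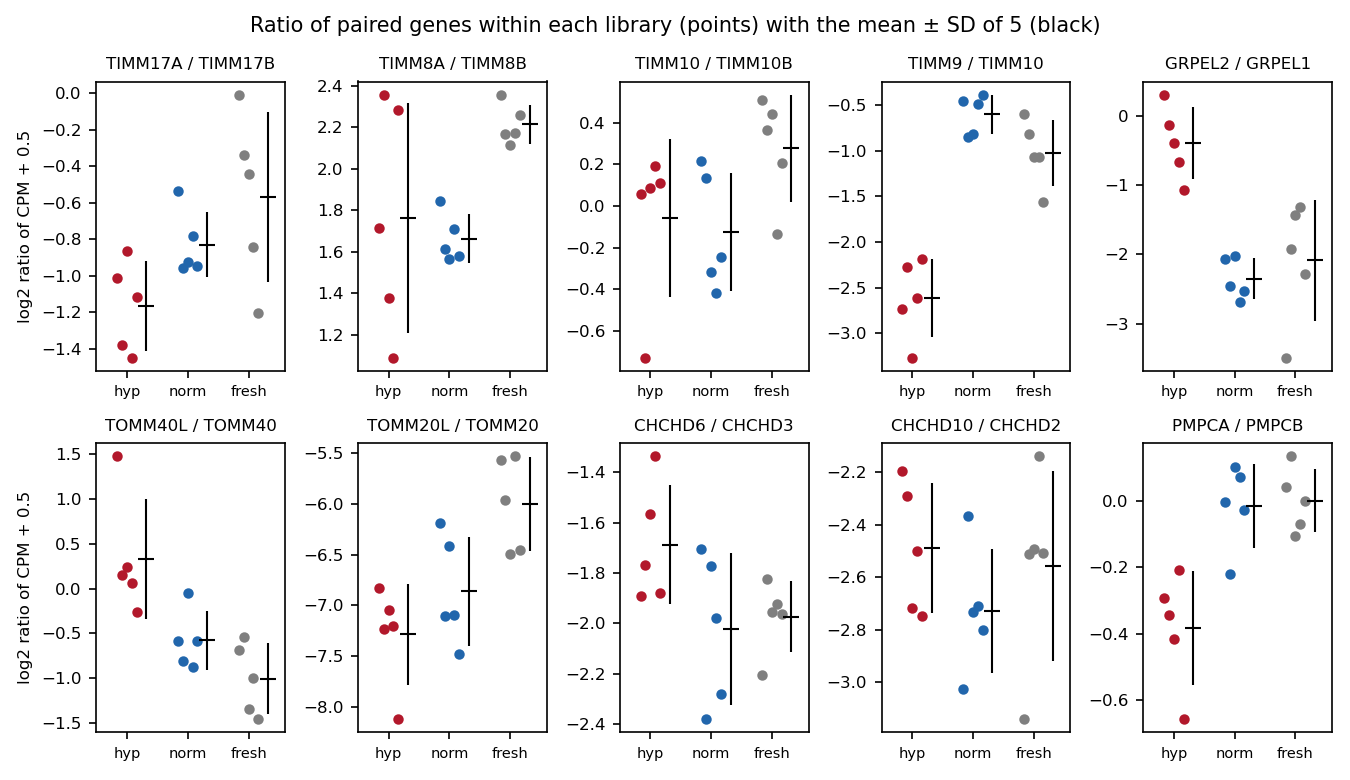
Log2 ratio of the paired genes within each library, with 0.5 CPM added to each gene, for libraries in the order hypoxia, normoxia and freshly laid, with bars at the group means. TIMM9 over TIMM10 is lowest and GRPEL2 over GRPEL1 highest in the 5 hypoxia libraries.

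Levels of different genes were compared only per length, as counts per kilobase of gene model, scaled to the same sum over all genes in each library. On this scale CHCHD2 was the highest member in normoxia, at 790.3 ± 71.7, and TOMM7 in hypoxia, at 475 ± 98.5 against 458 ± 54.3 in normoxia and 498 ± 44.6 in freshly laid embryos (SD, n = 5 each). In hypoxia TIMM13, at 391 ± 43, and CHCHD2, at 382 ± 50.9, followed TOMM7 within their spread. TOMM20L was the lowest in every group, at 0.157 ± 0.132 in hypoxia, 0.351 ± 0.194 in normoxia and 0.514 ± 0.185 in freshly laid embryos. TOMM34 stood at 1.09 ± 0.341 in hypoxia, next to the lowest, against 40.3 ± 11.7 in normoxia and 13 ± 3.31 in freshly laid embryos. TIMM9 stood at 5.03 ± 0.819 in hypoxia, 27 ± 2.25 in normoxia and 13.9 ± 1.47 in freshly laid embryos on the per-length scale. Its hexamer partner TIMM10 stood at 43.5 ± 8.57 in hypoxia, 54.4 ± 7.07 in normoxia and 38.3 ± 6.91 in freshly laid embryos, above TIMM9 in each group.

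Summed per length, the 9 TOM genes had 1404 ± 89.7 in hypoxia, 2037 ± 129 in normoxia and 1709 ± 103 in freshly laid embryos. For the 8 genes of the presequence translocase and motor the sums were 285 ± 7.56 in hypoxia, 625 ± 36.6 in normoxia and 476 ± 38.6 in freshly laid embryos. The 6 small TIMs summed to 591 ± 52.2 in hypoxia, 891 ± 50.4 in normoxia and 656 ± 108 in freshly laid embryos. The pair of MICOS genes summed to 279 ± 27.5 in hypoxia, 292 ± 21.8 in normoxia and 270 ± 9.98 in freshly laid embryos, the smallest spread of group means among these 4 sums. These sums carry no TMM factor either. They also weigh genes by level and length, whereas a median counts each gene once, and these differences were not separated. With TMM scaling the median log2 fold change in hypoxia over freshly laid embryos was 0.15 for the TOM genes and 0.34 for the small TIMs, although both sums per length were lower in hypoxia. It was -0.27 for the presequence translocase and motor and 0.59 for the pair of MICOS genes, each in the direction of its sum.

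**Figure D5:**
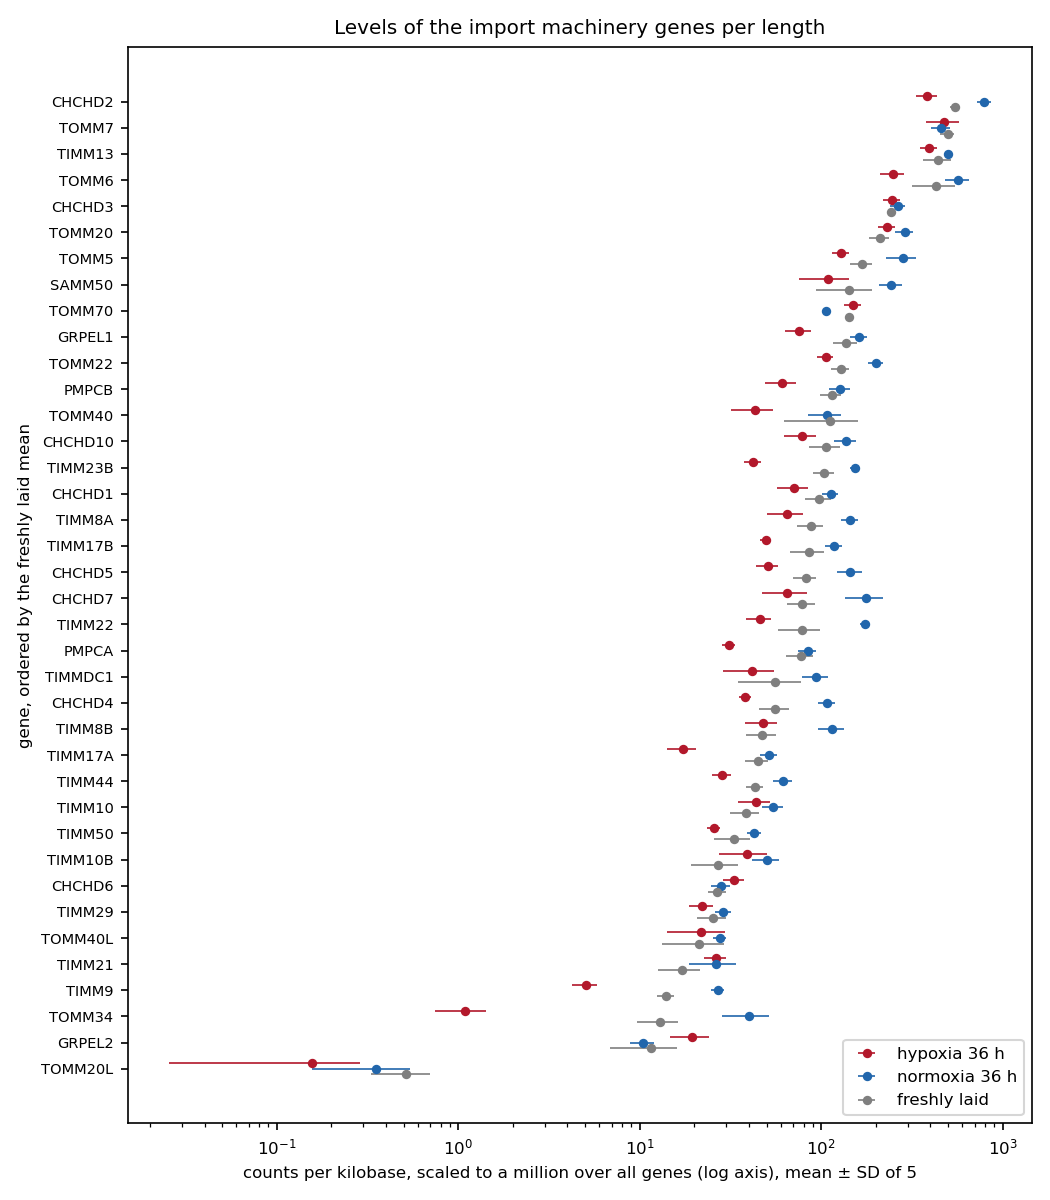
Counts per kilobase, scaled to the same sum over all genes in each library, on a log axis, for the 38 import genes by group, as mean and SD of 5 libraries, in the order hypoxia, normoxia and freshly laid. The members span from TOMM20L, at 0.157 in hypoxia, to CHCHD2, at 790 in normoxia.

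Partner genes were described from lists of known function. Over all tested genes, 15.2% were called higher and 16.1% lower in normoxia than in freshly laid embryos. In hypoxia 25.7% were called higher and 23.2% lower than in normoxia, and 20.9% higher and 19.4% lower than in freshly laid embryos. The counts of the lists here and below are to be read beside these shares. In the outer membrane, 3 of 9 partner genes were called higher in normoxia than in freshly laid embryos. In hypoxia 3 of the 9 were called higher than in freshly laid embryos, and 1 higher and 3 lower than in normoxia. MTX1, a metaxin of the SAM complex, averaged 117 ± 6.04 CPM in hypoxia, 81.8 ± 9.44 CPM in normoxia and 83.2 ± 18.4 CPM in freshly laid embryos and was called higher in hypoxia than in both (adjusted p = 0.00582 and 0.0101, edgeR). MTX2, its partner, averaged 56 ± 6.76 CPM in hypoxia, 80.3 ± 17 CPM in normoxia and 59 ± 9.51 CPM in freshly laid embryos and was called lower in hypoxia than in normoxia (adjusted p = 0.0121, edgeR).

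Among 10 inner membrane partners tested, 3 were called higher and 1 lower in normoxia than in freshly laid embryos, where 31.2% of all genes were called. In hypoxia 1 was called higher and 4 lower than in normoxia, where 25.7% of all genes were called higher and 23.2% lower. Against freshly laid embryos 2 were called higher and 4 lower in hypoxia, with 40.3% of all genes called. HSPA9, the HSP70 of the motor, averaged 714 ± 299 CPM in hypoxia, 519 ± 36.5 CPM in normoxia and 395 ± 30.8 CPM in freshly laid embryos, and was called higher in hypoxia than in freshly laid embryos (log2 fold change 0.85, adjusted p = 0.00505, edgeR) but not than in normoxia (0.46, adjusted p = 0.09). DNAJC19, a J-domain protein of the inner membrane, averaged 40.9 ± 5.97 CPM in hypoxia, 100.5 ± 8.64 CPM in normoxia and 100.8 ± 21.6 CPM in freshly laid embryos, and was called lower in hypoxia than in normoxia (adjusted p = 4.80e-06, edgeR) and than in freshly laid embryos (adjusted p = 9.41e-06, edgeR). AIFM1, which binds CHCHD4 and supports its import, averaged 49.7 ± 4.8 CPM in hypoxia, 91.8 ± 12.2 CPM in normoxia and 71.1 ± 9.63 CPM in freshly laid embryos and was called lower in hypoxia than in normoxia (adjusted p = 3.45e-05, edgeR).

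Beyond the presequence cut, 5 further processing enzymes were tested. In hypoxia 3 were called lower than in normoxia and 2 lower than in freshly laid embryos. In normoxia over freshly laid embryos edgeR called 0 of the 5, with 2 higher at an unadjusted p under 0.05 and 1 called higher by DESeq2 and by limma-voom. PITRM1, which degrades cleaved presequences, averaged 35.8 ± 10.7 CPM in hypoxia, 127 ± 18 CPM in normoxia and 95.8 ± 11.2 CPM in freshly laid embryos, with adjusted p = 5.46e-07 in hypoxia against normoxia and 1.35e-05 against freshly laid embryos by edgeR. Among 11 chaperones and proteases of the matrix and inner membrane, 1 was called higher in normoxia than in freshly laid embryos. Hypoxia had 1 of the 11 called higher and 6 lower than in normoxia, and 1 higher and 3 lower than in freshly laid embryos. HSPD1, the matrix chaperonin that folds imported proteins, averaged 407 ± 43.5 CPM in hypoxia, 1047 ± 146 CPM in normoxia and 595 ± 68 CPM in freshly laid embryos. It was called in all 3 comparisons by edgeR, with log2 fold changes of 0.82 in normoxia over freshly laid (adjusted p = 2.27e-04), -1.36 in hypoxia over normoxia (adjusted p = 3.50e-07) and -0.55 in hypoxia over freshly laid embryos (adjusted p = 0.00281).

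Genes of the stress response that impaired import is known to engage in mammalian cells were mostly higher in hypoxia. Import itself was not measured, and a link between it and these genes was not tested. Of 9 such genes, 7 were called higher in hypoxia than in normoxia, 7 higher and 1 lower than in freshly laid embryos, and 1 higher and 2 lower in normoxia than in freshly laid embryos. ATF4, the transcription factor of the integrated stress response, averaged 4233 ± 1784 CPM in hypoxia, 445 ± 57.8 CPM in normoxia and 427 ± 104 CPM in freshly laid embryos. It was 9.52-fold higher in hypoxia than in normoxia (adjusted p = 4.21e-08, edgeR) and 9.91-fold higher than in freshly laid embryos (adjusted p = 1.03e-07, edgeR). ATF5, linked to the mitochondrial unfolded protein response in mammals, averaged 1221 ± 381 CPM in hypoxia, 58.3 ± 13.4 CPM in normoxia and 146 ± 70.8 CPM in freshly laid embryos. It was 20.9-fold higher in hypoxia than in normoxia (adjusted p = 2.49e-08, edgeR) and 8.37-fold higher than in freshly laid embryos (adjusted p = 1.61e-06, edgeR). EIF2AK1, the kinase that relays mitochondrial stress to this pathway in human cells, averaged 83.3 ± 18.7 CPM in hypoxia, 17.1 ± 1.89 CPM in normoxia and 24.1 ± 3.13 CPM in freshly laid embryos, and was 4.88-fold higher in hypoxia than in normoxia (adjusted p = 1.79e-08, edgeR). DELE1, the mitochondrial protein that activates EIF2AK1 in human cells, was the gene called lower than in freshly laid embryos. It averaged 26.2 ± 4.47 CPM in hypoxia, 32.1 ± 2.15 CPM in normoxia and 40.8 ± 7.78 CPM in freshly laid embryos (log2 fold change -0.64, adjusted p = 0.00375 in hypoxia over freshly laid embryos, edgeR), with no call in hypoxia over normoxia (adjusted p = 0.131, edgeR). PINK1, a kinase that marks damaged mitochondria, was called in no comparison, at 45.7 ± 9.18 CPM in hypoxia, 53.7 ± 16.5 CPM in normoxia and 52.2 ± 15.2 CPM in freshly laid embryos. DELE1 and PINK1 were named after their values were seen.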

How the data were processed

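The values the authors deposited are raw counts of each gene in each library. STAR and featureCounts produced them and limma is also named, per the submitters' processing notes. Per the file headers, featureCounts 1.6.2 counted reads over annotated exons of rCheMyd1.pri on the strand given by its setting 2, took only alignments of mapping quality 10 or higher, and read alignments in which duplicates were marked. Of the 18 columns of counts, 3 could be tied to no sample of the series and stayed out. So did the row that has no gene name, which is mitochondrial (0.230 ± 0.106% of counts in hypoxia, 0.142 ± 0.0555% in normoxia and 0.114 ± 0.078% in freshly laid embryos). Library totals were 14496102 to 26805841 counts.

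The analysis used edgeR 4.0.16 in R 4.3.3: filterByExpr, TMM scaling and a quasi-likelihood model of 3 group means over 15 libraries, leaving 12 residual degrees of freedom, with Benjamini-Hochberg adjustment over 16639 genes. SE is the log2 fold change divided by the square root of F. No pair of libraries within a group agreed within sampling noise, since their chi-square per degree of freedom was at least 29.7. Alternatives were other scalings, no filter, each library left out, DESeq2 1.42.0, limma 3.58.1 with voom and fits of the compared groups alone. Others took the band of the number in the sample title as a covariate or summed neighbouring normoxia libraries. A covariate added after seeing the data was the number after S in the column names, split into under 12 and 12 or more. It is called the sheet number here, although the column names do not say what it marks. Values in every library are given for members with 1 of the 8 smallest adjusted p in a comparison and for pairs that passed. Other lists name at most 4 genes in a comparison, plus ATF4, ATF5, HSPA9, HSPD1 and GFER. The members and lists were chosen with earlier results of these data known. Replicate numbers only name libraries, and no sequences were used here.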

Additional observations from a re-analysis of the deposited data

Results flagged for a closer look

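Each of the 38 members was checked in each group of 5 libraries for a library whose gap to its nearest neighbour exceeded 0.71 of the group's range. Of 114 such groups 7 had one, where chance gives about 1 in 20. TOMM20 stood at 165 CPM in normoxia replicate 5, above 113 to 128 CPM in the other normoxia libraries. CHCHD2 stood at 439 CPM in the same library, above 327 to 353 CPM in the others. CHCHD1 was at 19.8 CPM in hypoxia replicate 2, below 32.3 to 37.2 CPM in the other hypoxia libraries. TIMM29 was at 16.5 CPM in hypoxia replicate 1, above 11.8 to 12.2 CPM in the others. TIMM50 was at 55.8 CPM in hypoxia replicate 4, below 64.5 to 65.9 CPM in the others. TOMM5 was at 47.0 CPM in freshly laid replicate 4, below 65.6 to 71.5 CPM in the other freshly laid libraries. TIMM50 was at 95.1 CPM in freshly laid replicate 5, above 44.1 to 56.8 CPM in the others.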

How the results depend on the processing

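No called member and no pair past the threshold changed direction under any alternative run. With total counts only, hypoxia over freshly laid embryos gave 4 members called higher and 15 lower, against 8 and 8 with TMM, and over all genes 2088 higher and 5259 lower, against 3474 and 3227. In hypoxia over normoxia the same scaling gave 2674 genes called higher, against 4268. Both shifts follow the factors themselves, which move the median of all genes. Pairs of normoxia libraries with neighbouring title numbers might share a source that the labels do not give. Summing them left 3 normoxia libraries, 0 pair ratios past the threshold in normoxia over freshly laid embryos and 0 in hypoxia over normoxia, where 3 against 5 libraries cannot go under p = 0.0357 in the exact permutation test, and 2990 genes called in normoxia over freshly laid embryos, against 5193. Of the members, 17 were then called higher in normoxia over freshly laid embryos, against 22, with calls lost for TIMM10, TIMM17B, TIMM21, TIMM50 and TOMM6 (adjusted p of at most 0.14). In hypoxia over normoxia 22 were called lower, against 24, without CHCHD10 and TIMM50, and in hypoxia over freshly laid embryos GRPEL1 was lost. A pseudocount of 2 CPM gave 2 pairs past the threshold in normoxia over freshly laid embryos, against 1. Leaving out 1 library at a time gave 19 to 24 members called higher and 0 to 0 lower in normoxia over freshly laid embryos, 3 to 4 higher and 22 to 24 lower in hypoxia over normoxia, and 8 to 10 higher and 7 to 9 lower in hypoxia over freshly laid embryos. Pairs past the threshold then numbered 1 to 1 in normoxia over freshly laid embryos, 2 to 3 in hypoxia over normoxia and 4 to 6 in hypoxia over freshly laid embryos. No paired analysis was made because the labels give the groups no replicate numbers and do not say what the title numbers stand for. Each band of title numbers held a freshly laid and a hypoxia library, while some bands held no normoxia library. With the band of the title number as a covariate, TIMM10 and TIMM50 lost their calls in normoxia over freshly laid embryos (20 members called higher, against 22), CHCHD10 and TIMM50 lost theirs in hypoxia over normoxia (22 called lower, against 24), TOMM7 was called higher in hypoxia than in normoxia and TOMM6 lower in hypoxia than in freshly laid embryos. Other calls lost were GRPEL1 in hypoxia over freshly laid embryos with no filter, with the sheet number as a covariate and in the fit of the 10 libraries compared, TIMM50 in hypoxia over normoxia with no filter and in normoxia over freshly laid embryos in the fit of 10, and TOMM6 in normoxia over freshly laid embryos with the sheet number. Depth limited TOMM20L, the only member under 2 CPM in every library.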

Other observations

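Cytosolic chaperones that hand precursors to the TOM complex also differed between groups. Of 7 tested, 4 were called higher and 1 lower in normoxia than in freshly laid embryos, 1 higher and 6 lower in hypoxia than in normoxia, and 1 higher and 5 lower in hypoxia than in freshly laid embryos. Over all tested genes, 15.2% were called higher and 16.1% lower in normoxia than in freshly laid embryos. The shares were 25.7% higher and 23.2% lower in hypoxia than in normoxia, and 20.9% and 19.4% in hypoxia than in freshly laid embryos. HSPA8, the constitutive HSP70, averaged 838 ± 148 CPM in hypoxia, 2162 ± 102 CPM in normoxia and 1220.5 ± 181 CPM in freshly laid embryos, and was called lower in hypoxia than in normoxia (adjusted p = 6.17e-07, edgeR). Its J-domain partner DNAJA1 averaged 105 ± 24.2 CPM in hypoxia, 379 ± 28.9 CPM in normoxia and 221 ± 28.4 CPM in freshly laid embryos, and was also called lower in hypoxia than in normoxia (adjusted p = 6.77e-08, edgeR). HSP90AB1, a cytosolic HSP90, went the other way, at 5929 ± 275 CPM in hypoxia, 2646 ± 360.2 CPM in normoxia and 3589 ± 823 CPM in freshly laid embryos, and was called higher in hypoxia than in normoxia (adjusted p = 7.70e-06, edgeR).

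Of 10 regulators of mitochondrial gene expression, 5 were called higher and 1 lower in normoxia than in freshly laid embryos, 5 lower in hypoxia than in normoxia, and 2 higher and 3 lower in hypoxia than in freshly laid embryos. Of all genes, 15.2% were called higher and 16.1% lower in normoxia than in freshly laid embryos. In hypoxia 25.7% were called higher and 23.2% lower than in normoxia, and 20.9% higher and 19.4% lower than in freshly laid embryos. PPARGC1B, a coactivator of mitochondrial genes, averaged 11.4 ± 8.81 CPM in hypoxia, 47.6 ± 13.7 CPM in normoxia and 13.5 ± 3.76 CPM in freshly laid embryos, and was called higher in normoxia than in freshly laid embryos (adjusted p = 0.00259, edgeR) and lower in hypoxia than in normoxia (adjusted p = 4.18e-04, edgeR). MYC averaged 11.5 ± 3.91 CPM in hypoxia, 42.4 ± 5.38 CPM in normoxia and 22.4 ± 8.1 CPM in freshly laid embryos, and was called lower in hypoxia than in normoxia (adjusted p = 1.44e-05, edgeR) and than in freshly laid embryos (adjusted p = 0.00575, edgeR). ESRRA and PPARGC1A were the regulators called higher in hypoxia than in freshly laid embryos (adjusted p = 0.0026 and 0.017, edgeR), with no call between hypoxia and normoxia. ESRRA averaged 43.7 ± 18.5 CPM in hypoxia, 33.2 ± 12.2 CPM in normoxia and 18.4 ± 3.76 CPM in freshly laid embryos. PPARGC1A was low throughout, at 1.16 ± 0.685, 3.75 ± 1.98 and 0.15 ± 0.147 CPM in that order.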
